A study of Canis lupus familiaris with 4 samples.

Results

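TWIST1 peaks on dog chromosomes 5 and 9 were examined in 5 Mb steps along each chromosome, in 2 ChIP-seq experiments on MDCK cells that express human TWIST1. The members were all peaks of both deposited lists on these chromosomes that began at base 250000 or later. They numbered 3870 of 73701 peaks in replicate 1 (5.25%) and 3085 of 60370 in replicate 2 (5.11%), or 6955 of 134071 in all. Chromosome 5 held 2593 and 2166 of them, and chromosome 9 held 1277 and 919. A further 7 and 13 peaks of these chromosomes lay in the first 250 kb and were left out. The 2 chromosomes were chosen by the density of regions found in both experiments, so their density is given as a description with no test. All intervals below cover counting error only, and neighbouring peaks are not independent.

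MDCK is an epithelial cell line from dog kidney. All libraries came from MDCK cells with constitutive expression of human TWIST1, which showed a TWIST1-induced mesenchymal phenotype. The cells were kept in 2 to 4 µg/mL puromycin without other treatment before crosslinking in 1% formaldehyde for 10 min. The 2 TWIST1 libraries were immunoprecipitated with an Abcam monoclonal antibody, whose lot is recorded for replicate 2 alone, and 2 input libraries from the same cells were not immunoprecipitated. The model is a dog cell line with a human transgene, and libraries of cells without the transgene were not analysed here. Each TWIST1 library had its own peak list on the build CanFam3.1, in which the inputs appear only as background.

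TWIST1 is a basic helix-loop-helix transcription factor. It binds E-box motifs as a dimer, often with an E protein as partner, and can both repress and activate genes. In epithelial cells it drives the change to a mesenchymal state, in which cell junctions are lost and cells become motile. In the embryo it acts in the mesenchyme of the head, from which much of the skull forms. A ChIP-seq peak is a place where precipitated fragments pile up above the background expected from the input. Its fold enrichment is the ratio of fragments to background after the same small constant is added to both. The fold is therefore lower than the plain ratio of fragments to background. The formula is given with the data processing.

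The lists were permissive, with lowest −log10 p values of 2.01 and 2.00, and read totals were not analysed here. Solved from the peak statistics, the genome-wide background was 2.03 overlapping fragments in replicate 1 against 4.33 in replicate 2, and the lowest pileups listed were 6 and 10 fragments. The members were compared with the peaks of 34 other autosomes, selected in the same way. Chromosomes 14 and 17 stayed out of the comparison because the input stands higher along them. Up to the last peak, chromosome 5 spanned 88.7 Mb, chromosome 9 spanned 60.8 Mb and the 34 other autosomes 1919 Mb.

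Chromosome 5 carried a usual number of listed peaks per Mb, and chromosome 9 carried the fewest of these autosomes. In replicate 1 there were 29.2 peaks per Mb on chromosome 5 (exact Poisson 95% interval 28.1 to 30.4) and 21.0 on chromosome 9 (19.9 to 22.2), against 31.1 on the other autosomes. In replicate 2 the densities were 24.4 (23.4 to 25.5), 15.1 (14.2 to 16.1) and 25.3 peaks per Mb. All 34 other autosomes had more listed peaks per Mb than chromosome 9 in both replicates, where the lowest of them, chromosome 27, had 25.2 and 18.1. For chromosome 5, 22 of the 34 were higher in replicate 1 and 18 in replicate 2.

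Peaks that passed the q threshold of 0.05 were again sparse on chromosome 9. On chromosome 5 they numbered 923 of 2593 in replicate 1 and 758 of 2166 in replicate 2, which is 35.6% and 35.0%. On chromosome 9 the counts were 492 of 1277 and 353 of 919, or 38.5% and 38.4%. Across all 39 chromosomes the corresponding shares were 33.8% and 33.5%. The shares of chromosome 9 lay above those of all 34 other autosomes, which reached 35.8% in replicate 1 and 36.3% in replicate 2. Outside the comparison, chromosome 14 had 38.0% and 35.7%, and chromosome 17 had 38.7% and 33.9%. Chromosome 17 was thus slightly above chromosome 9 in replicate 1. Per Mb, chromosome 5 had 10.4 such peaks in replicate 1 (9.75 to 11.1) and 8.55 in replicate 2 (7.95 to 9.18), next to 10.5 and 8.45 on the other autosomes. Chromosome 9 had 8.09 (7.39 to 8.84) and 5.80 (5.22 to 6.44), which is 0.771 and 0.687 times the density elsewhere.

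Peaks that recurred in the other experiment were dense on both chromosomes. A peak of either list with q ≤ 0.05 that overlapped such a peak of the other list by at least 1 bp was merged with it into a shared region. There were 153 shared regions on chromosome 5, at 1.73 per Mb (95% interval 1.46 to 2.02). Chromosome 9 held 104, or 1.71 per Mb (1.397 to 2.07). The 34 other autosomes held 2202, or 1.15 per Mb, and ranged from 0.635 on chromosome 38 to 1.59 on chromosome 28. Outside the comparison, chromosome 17 had 1.81 per Mb (1.497 to 2.17), above both members, with an interval that overlapped theirs. Chromosome 14 had 1.499 per Mb, below both. The density was thus 1.504 times that elsewhere on chromosome 5 (1.27 to 1.77) and 1.49 times on chromosome 9 (1.21 to 1.81). These are the values that led to the choice of the 2 chromosomes.

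**Figure D1:**
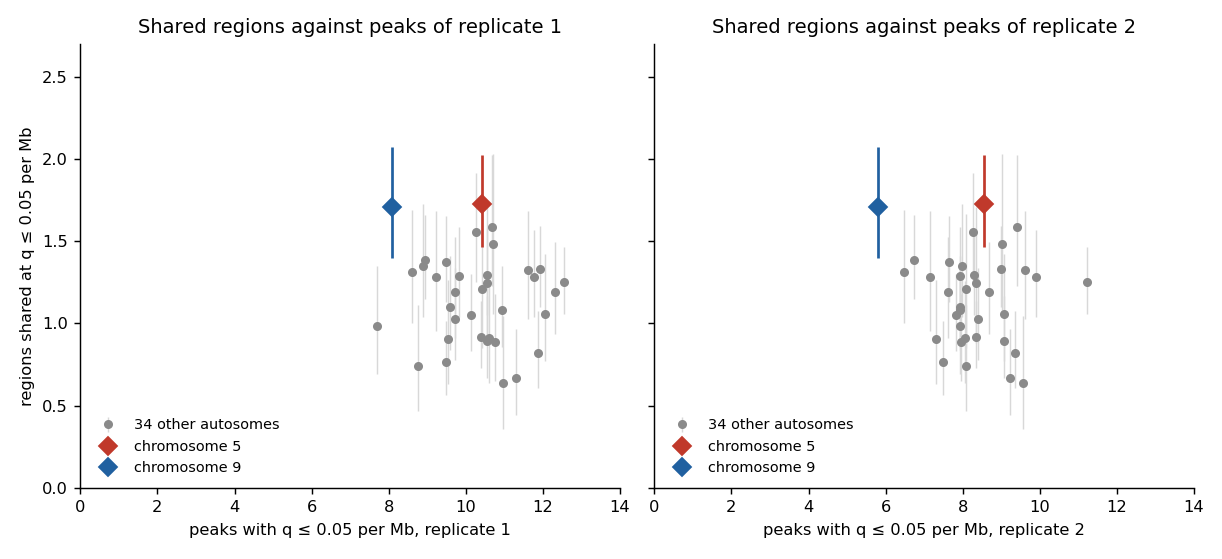
Shared regions per Mb (y axis) against peaks with q ≤ 0.05 per Mb (x axis) in replicate 1 (left) and replicate 2 (right). Grey points are the 34 other autosomes, diamonds are chromosomes 5 and 9, and bars are exact Poisson 95% intervals of the shared regions. Chromosome 5 sits at 10.4 and 8.55 peaks per Mb, within the cloud, and chromosome 9 at 8.09 and 5.80, at its left edge, while both lie above all grey points on the y axis. Chromosome 17, which is not among the grey points, had more shared regions per Mb than either, at 1.81.

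With peaks of ordinary or low density and many shared regions, the recurring part of each list was large. On chromosome 5, 181 of 923 replicate 1 peaks with q ≤ 0.05 overlapped a replicate 2 peak of any strength, or 19.6% (exact binomial 95% interval 17.1 to 22.3). On chromosome 9 the count was 117 of 492, or 23.8% (20.1 to 27.8). Over all chromosomes the share was 13.8%, and among the 34 other autosomes it ran from 8.46% to 18.4%. Both members stood above that range in replicate 1. Partners with q ≤ 0.05 made up 153 of the 181 and 104 of the 117. The shares, in either direction, thus largely restate the density by which the chromosomes were chosen.

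In the other direction, 170 of 758 replicate 2 peaks of chromosome 5 had a replicate 1 partner, or 22.4% (19.5 to 25.6), and 120 of 353 on chromosome 9, or 33.99% (29.1 to 39.2). Over all chromosomes this share was 16.6%, and the other autosomes ran from 9.07% to 25.1%. Chromosome 9 was above all of them, while 2 of the 34 exceeded chromosome 5. When the partner also had to pass q ≤ 0.05, the shares were 16.6% and 20.2% on chromosome 5 and 21.1% and 29.5% on chromosome 9, for replicates 1 and 2, against 11.0% and 13.6% over all chromosomes. Among listed peaks of any strength, 232 of each replicate had a partner on chromosome 5 (8.95% and 10.7%) and 141 on chromosome 9 (11.04% and 15.3%), against 6.63% and 8.12% over all chromosomes.

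The peaks with q ≤ 0.05 that found no partner were the scarce ones on chromosome 9. Without a partner of any strength there were 375 peaks in replicate 1 and 233 in replicate 2, or 6.17 and 3.83 per Mb, against 9.05 and 7.04 on the other autosomes. All 34 of those had more per Mb in both replicates. Chromosome 5 had 742 and 588 such peaks, or 8.37 and 6.63 per Mb, within the range of the other autosomes. So chromosome 9 reached its high shares with fewer solitary peaks as well as more shared ones, and chromosome 5 mainly with more shared ones.

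The density relative to the other autosomes differed with the strength of the peaks. Peaks were ranked by p within each list. Among ranks 1 to 500, chromosome 5 had 30 peaks in replicate 1 and 27 in replicate 2, and chromosome 9 had 22 and 24. Their densities were 1.61 and 1.45 times those of the other autosomes on chromosome 5, and 1.72 and 1.87 times on chromosome 9. The interval for chromosome 5 in replicate 2 ran from 0.941 to 2.14, and the other lower bounds were 1.07, 1.06 and 1.19. Nearly all peaks of these ranks are shared, so their density largely restates the value by which the chromosomes were chosen.

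At ranks 501 to 1000 the ratios were 1.89 and 1.72 on chromosome 5 and 1.34 and 0.988 on chromosome 9, the last with 13 peaks. At ranks 1001 to 2000 they were 1.34 and 1.13 on chromosome 5 and 1.84 and 1.29 on chromosome 9. Most member peaks of these 2 classes had a partner too, so the same limit holds for them. At ranks 2001 to 5000 chromosome 5 had 0.978 (0.802 to 1.18) and 0.750 (0.598 to 0.930), and the replicates of chromosome 9 parted, with 1.04 (0.824 to 1.30) in replicate 1 and 0.445 (0.309 to 0.620) in replicate 2. Past rank 20000 chromosome 5 stood at 0.900 and 0.945 and chromosome 9 at 0.611 and 0.554. At ranks 5001 to 10000 the ratios were 0.899 (0.765 to 1.05) and 1.16 (1.01 to 1.34) on chromosome 5 and 0.698 and 0.820 on chromosome 9. At ranks 10001 to 20000 they were 1.03 and 0.944 on chromosome 5 and 0.688 and 0.560 on chromosome 9. Chromosome 9 was thus below 1 in both replicates in every class past rank 5000, and in replicate 2 also at ranks 2001 to 5000.

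**Figure D2:**
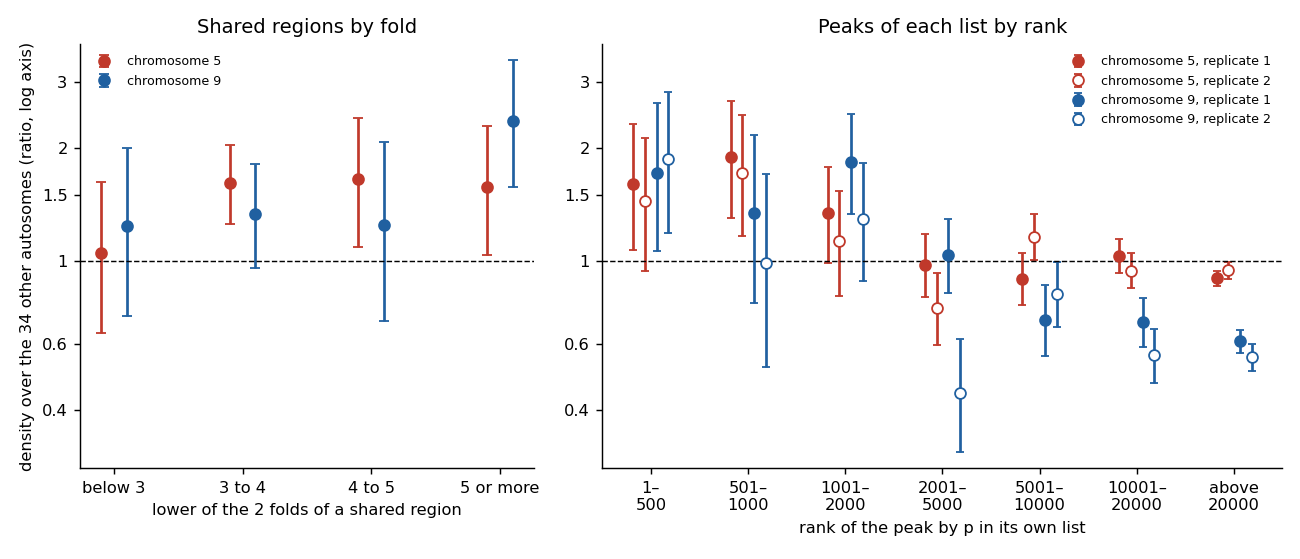
Density on chromosomes 5 and 9 divided by that on the 34 other autosomes (log axis; dashed line at 1), for shared regions by the lower of their 2 folds (left) and for peaks of each list by rank (right; filled symbols replicate 1, open symbols replicate 2). Bars are 95% intervals from the exact binomial split of counts. At the right end chromosome 9 falls to 0.611 and 0.554, and at fold 5 or more its shared regions reach 2.37.

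By strength of the shared regions the 2 chromosomes differed in their values. The lower of the 2 replicates' folds was used as the strength of a region. On chromosome 5, the density relative to other autosomes was 1.05 below 3-fold (21 regions), 1.62 from 3 to 4 (74 regions), 1.66 from 4 to 5 (29 regions) and 1.57 at 5 or more (29 regions; 1.04 to 2.29). On chromosome 9 the ratios were 1.24 (17 regions), 1.34 (42 regions), 1.25 (15 regions) and, at 5 or more, 2.37 (30 regions; 1.58 to 3.44). The interval of chromosome 9 at 5 or more overlapped that of chromosome 5, and the difference between the chromosomes was not tested. All fold classes are parts of the shared regions whose density chose the chromosomes, so ratios above 1 follow in part from that choice.

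Chromosome 9 thus had as many strong regions as chromosome 5, 30 against 29, on a shorter sequence. They came to 0.493 per Mb on chromosome 9 (0.333 to 0.704) and 0.327 on chromosome 5 (0.219 to 0.470), next to 0.208 on the other autosomes. Among those, the highest single chromosome, 30, had 0.377 per Mb. As a share of the shared regions, 28.8% reached 5-fold in both replicates on chromosome 9 (20.4 to 38.6) and 18.95% on chromosome 5 (13.1 to 26.1), against 18.3% over all chromosomes. Chromosome 5 was therefore close to the background in this share, and 1 of the 34 other autosomes, chromosome 30, was above chromosome 9 with 29.4%.

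A fold of at least 3 in both replicates was found at 132 regions of chromosome 5 (86.3%) and 87 of chromosome 9 (83.7%), against 79.6% over all chromosomes. At least 10-fold were 2 and 5 regions, or 1.31% (0.159 to 4.64) and 4.81% (1.58 to 10.9), against 1.73% over all chromosomes. Both intervals include the background. The density of these regions was 1.17 times that elsewhere on chromosome 5 (0.137 to 4.53) and 4.26 times on chromosome 9 (1.31 to 10.9), from these small counts. These regions too are among those whose density chose the chromosomes.

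Taken over all shared regions, typical folds were close to those elsewhere. The median in replicate 1 was 5.504 on chromosome 5 (quartiles 4.16 and 7.27), 5.94 on chromosome 9 (4.40 and 7.64) and 5.09 on the other autosomes (3.897 and 7.20). In replicate 2 the medians were 3.75 (3.19 and 4.69), 3.76 (3.17 and 5.35) and 3.67 (3.098 and 4.75). The lowest folds at member regions were 2.92 and 2.35 on chromosome 5 and 3.08 and 2.58 on chromosome 9, for replicates 1 and 2. Replicate 1 gave the higher fold at 123 regions of chromosome 5 (80.4%) and 87 of chromosome 9 (83.7%), against 84.3% over all chromosomes. The lower fold was therefore mostly that of replicate 2. The q threshold admitted different folds in the 2 lists. At the genome-wide background, 10 fragments passed it at 3.64-fold in replicate 1, and 15 fragments at 3.00-fold in replicate 2. The part of this in the higher folds of replicate 1 was not tested.

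The folds of the 2 experiments went together loosely. Spearman's rho between the replicates' folds was 0.34 across the 153 regions of chromosome 5, 0.58 across the 104 of chromosome 9 and 0.52 across the 2202 of the other autosomes. Regions of 1 chromosome share their libraries, so these values are descriptions, and their difference was not tested. Replicate 1 was at least 2-fold above replicate 2 at 30 regions of chromosome 5 (19.6%) and 18 of chromosome 9 (17.3%), against 308 elsewhere (13.99%). The reverse held at 0 regions of either and at 2 elsewhere. On the log2 scale the median difference, replicate 1 minus replicate 2, was 0.46 (SD 0.54 across regions) on chromosome 5, 0.57 (SD 0.49) on chromosome 9 and 0.43 (SD 0.48) elsewhere.

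**Figure D3:**
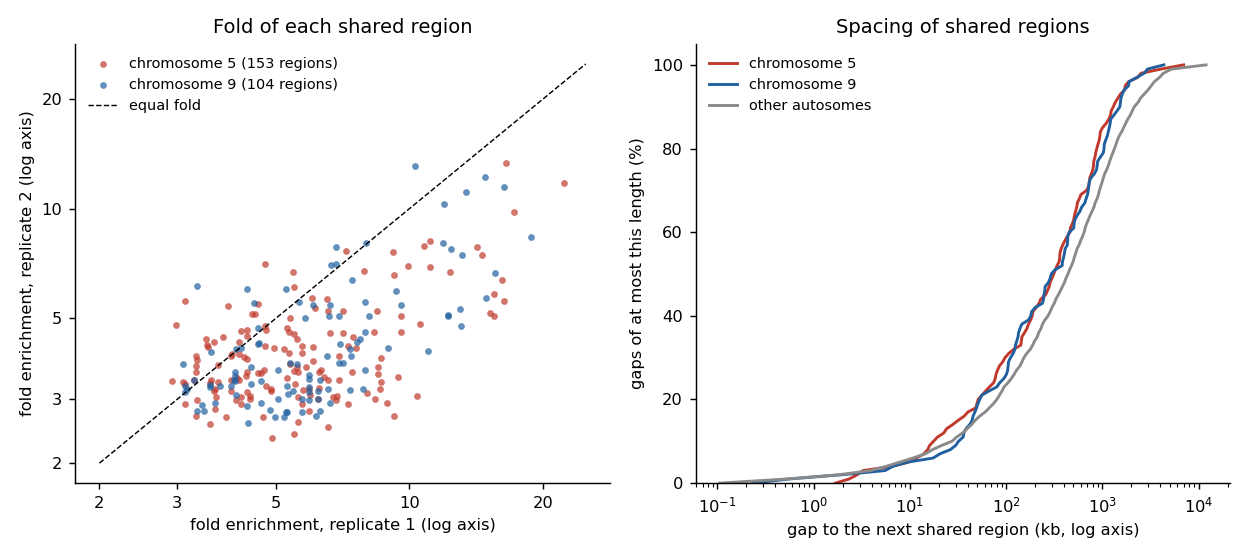
Left, fold enrichment of each shared region in replicate 1 (x) and replicate 2 (y), both on log axes, with a dashed line of equal fold. Right, cumulative share of gaps between neighbouring shared regions (log axis, kb) for chromosomes 5 and 9 and the 34 other autosomes. Most points lie below the line, 123 of 153 and 87 of 104, and the curves of both chromosomes lie left of the grey curve at their medians of 312 and 295 kb against 439 kb.

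The 8 strongest regions of chromosome 5 had folds of 7.45 or more in each experiment. The first, at chr5:64507910-64508506, reached 16.5-fold in replicate 1 (exact Poisson 95% interval 12.3 to 21.7) from a pileup of 49 fragments, and 13.3-fold in replicate 2 (10.4 to 16.8) from 70 fragments. Its local background was at the genome-wide value in both libraries, and the intervals of the 2 folds overlapped. It ranked 11 among all shared regions of the genome.

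The second region, at chr5:19580799-19581427, had the highest replicate 1 fold of the chromosome, 22.4 (17.7 to 27.8), and 11.8 in replicate 2 (9.53 to 14.4). The pileups were 78 and 92 fragments, with local backgrounds of 1.25 and 1.59 genome-wide units. The third, at chr5:76681875-76682457, gave 17.2-fold (12.9 to 22.5) and 9.81-fold (7.47 to 12.7), from 51 and 57 fragments. In these 2 regions the intervals of the replicates did not overlap, replicate 1 being higher, while those of the first region did.

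The other 5 regions of chromosome 5 had folds between 9.20 and 14.6 in replicate 1 and between 7.45 and 8.16 in replicate 2. They lay at chr5:61684674-61685236, chr5:36422625-36423099, chr5:60562061-60562662, chr5:8197611-8197987 and chr5:46449588-46450591. The last was the widest shared region of the chromosome, at 1004 bp, and had a pileup of 48 fragments in both libraries. The replicates' intervals did not overlap at chr5:60562061-60562662 either, with 10.6 to 18.6 in replicate 1 against 6.04 to 10.1 in replicate 2. The same held at chr5:46449588-46450591, with 10.8 to 19.2 against 5.53 to 9.82. In all 8 regions the summits of the 2 libraries were 4 to 78 bp apart.

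On chromosome 9 the 8 strongest regions had folds of 7.99 or more in each experiment. The first, at chr9:56161869-56162254, reached 14.8-fold in replicate 1 (10.97 to 19.6) and 12.2-fold in replicate 2 (9.43 to 15.5), from 47 and 64 fragments. The second, at chr9:53610041-53610562, gave 16.4-fold (12.4 to 21.3) and 11.4-fold (8.78 to 14.7), and the third, at chr9:48529318-48529729, 13.4-fold (10.1 to 17.5) and 11.1-fold (8.55 to 14.2). The replicates' intervals overlapped at all 3.

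At the fourth region of chromosome 9, chr9:32640052-32640490, replicate 2 was the higher, at 13.1-fold (10.3 to 16.6) against 10.3-fold (7.87 to 13.3), with overlapping intervals. The pileups were 58 and 69 fragments, and the background was 2.33 times the genome-wide value in replicate 1 and at that value in replicate 2. This region also stood at the edge of the longest stretch of chromosome 9 without a shared region, 4.36 Mb up to base 36997701. In that stretch 63 and 35 peaks were listed, 18 and 12 of them with q ≤ 0.05.

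The other 4 regions of chromosome 9 lay at chr9:13034053-13034606, chr9:45756608-45757167, chr9:44757430-44758056 and chr9:15408595-15409070. The second of these had the highest replicate 1 fold of the chromosome, 18.8 (14.4 to 24.1), against 8.36 in replicate 2 (6.48 to 10.6), with both summits on the same base. At the last one the folds were 7.99 and 8.05, the closest of the 8.

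Along chromosome 5 the shared regions were uneven. Bins with at least 2.5 Mb between base 250000 and the last peak were compared, 18 on chromosome 5, 12 on chromosome 9 and 385 on the other autosomes. On the other autosomes the median bin had 1.0 shared region per Mb and the 90th percentile was 2.0. On chromosome 5 the bins ran from 0.20 to 4.0 per Mb with a median of 1.5. Of its 18 bins, 6 were above the 90th percentile, against 9.87% of the other bins, and 2 were below the 10th percentile of 0.40. The 6 dense bins held 91 of the 153 regions (59.5%) on 33.8% of the span.

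The densest was the bin from 60 to 65 Mb, with 20 shared regions, 6 of them at least 5-fold in both replicates. No bin of the other autosomes was denser, and the highest of them had 3.8 per Mb. It was no place of many listed peaks, with 109 in replicate 1 and 65 in replicate 2. Its peaks with q ≤ 0.05 were above the median bin elsewhere in replicate 1 (10.5 per Mb) and below it in replicate 2 (8.2 per Mb). Of its 57 and 34 peaks with q ≤ 0.05, 40.4% and 64.7% had a partner. It held the strongest region of the chromosome and the fourth and the sixth. The bins from 50 to 55 Mb (18 regions), 65 to 70 Mb (15), 35 to 40 Mb (14), 15 to 20 Mb (12) and 75 to 80 Mb (12) were the other dense ones.

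The far end of chromosome 5 looked opposite. From 80 to 85 Mb there was 1 shared region among 137 and 107 listed peaks, which made this the emptiest bin of the chromosome at 0.20 per Mb. From 85 Mb to the last peak, over 3.91 Mb, 265 and 236 peaks were listed and again 1 shared region, with folds of 3.64 and 2.82. That is 67.7 and 60.3 listed peaks per Mb, above all 385 bins of the other autosomes, which reached 56.6 and 52.6. Peaks with q ≤ 0.05 stood at 18.9 and 17.9 per Mb, where 0 and 1 of the other bins were higher, yet 6.76% and 4.29% of them had a partner. The background at the peaks was near the genome-wide value there, at 1.01 and 1.03 times.

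These bins took in the longest stretch without a shared region on chromosome 5, which ran 6.99 Mb from 80466790 to 87459187. It contained 283 and 261 listed peaks, 89 and 77 with q ≤ 0.05. The next longest, 4.98 Mb from 27997493 to 32980405, held 101 and 83 peaks, 34 and 25 with q ≤ 0.05. Absence of shared regions therefore did not mean absence of peaks in either stretch.

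Chromosome 9 was more even. Its 12 bins ran from 0.80 to 3.4 shared regions per Mb with a median of 1.6, and 10 of them were above the median bin of the other autosomes. A single bin was above the 90th percentile and 0 were below the 10th. That bin, from 50 to 55 Mb, held 17 regions among 78 and 58 listed peaks, and 45.0% and 53.1% of its 40 and 32 peaks with q ≤ 0.05 had a partner. The fewest, 4 regions, lay from 10 to 15 Mb, though 2 of those were at least 5-fold in both replicates.

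Strong regions were spread along chromosome 9 too. Regions of at least 5-fold in both replicates were found in 11 of its 12 bins, most often from 30 to 35 Mb (5 regions) and from 55 to 60 Mb (4 regions). Listed peaks were sparse at the same time, with 7 of 12 bins below the 10th percentile of the other bins in each replicate. The share of peaks with q ≤ 0.05 that had a partner exceeded the median bin elsewhere in 11 of 12 bins in both replicates. The exception was from 25 to 30 Mb, at 8.62% and 12.5%, the bin with the most listed peaks of the chromosome.

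**Figure D4:**
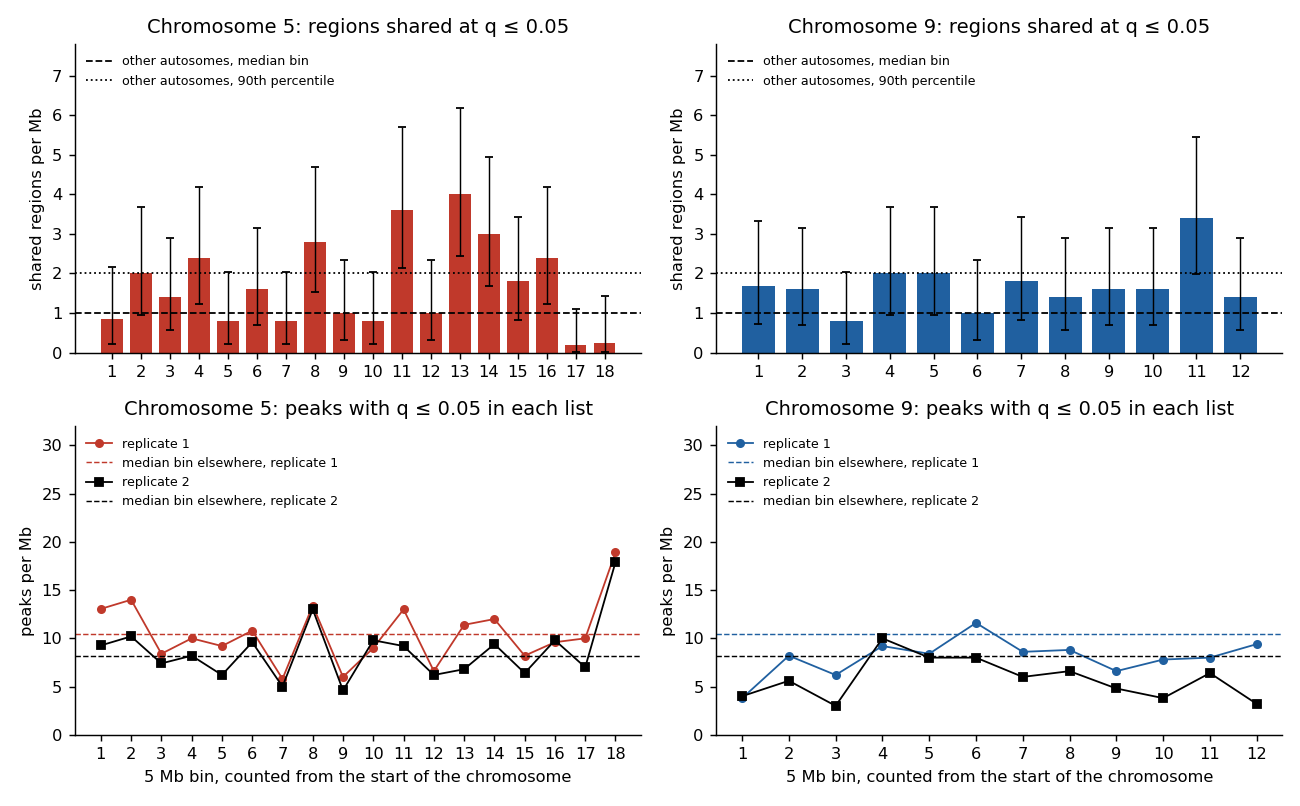
Top, regions shared at q ≤ 0.05 per Mb in successive 5 Mb bins of chromosomes 5 and 9, with exact Poisson 95% intervals; dashed and dotted lines give the median (1.0) and the 90th percentile (2.0) of 385 bins of the other autosomes. Bottom, peaks with q ≤ 0.05 per Mb in each list, with dashed lines at the median bin elsewhere. The last bin of chromosome 5 is the highest in the bottom panel, at 18.9 and 17.9, and near the lowest in the top one, at 0.256.

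Bins with many listed peaks were not in general those with many shared regions. Across the 18 bins of chromosome 5, Spearman's rho between listed peaks per Mb and shared regions per Mb was −0.02 for replicate 1 and 0.01 for replicate 2. Across the 12 bins of chromosome 9 it was −0.13 and below 0.01 in size, and across 385 bins elsewhere −0.32 and −0.35. With peaks of q ≤ 0.05 in place of all listed ones, rho was 0.30 and 0.19 on chromosome 5, −0.10 and 0.46 on chromosome 9, and −0.05 and −0.13 elsewhere. Listed peaks of the 2 replicates went together, with rho of 0.75 on chromosome 5, 0.78 on chromosome 9 and 0.89 elsewhere. Bins of 1 chromosome share libraries and are not independent, so these are descriptions.

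Gaps were shorter than elsewhere, as the density requires. Neighbouring shared regions were a median of 312 kb apart on chromosome 5 (quartiles 77.1 and 798 kb) and 295 kb on chromosome 9 (94.7 and 871 kb), against 439 kb elsewhere (113 and 1112 kb). Singly, 3 of the 34 other autosomes had a shorter median gap than either member, the lowest being 271 kb on chromosome 30. Chromosome 17, outside the comparison, had 250 kb. The shortest gaps were 1685 bp on chromosome 5 and 234 bp on chromosome 9. Gaps over 2 Mb numbered 6 of 152 on chromosome 5 and 4 of 103 on chromosome 9, against 244 of 2168 elsewhere.

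The share of close neighbours was near that over all chromosomes. A second one lay within 10 kb at 16 of 153 regions of chromosome 5, or 10.5% (exact binomial 95% interval 6.10 to 16.4), and at 12 of 104 of chromosome 9, or 11.5% (6.11 to 19.3). The share over all chromosomes was 10.2%. All of these neighbours formed pairs, 8 on chromosome 5 and 6 on chromosome 9, with no run of 3 or more. The other autosomes had 8 such runs among 2202 regions, the longest of 11 regions. Runs of 3 or more were so rare there that their absence among 153 and 104 regions is no trait of the members. Runs of 2 or more came to 0.902 per 10 Mb on chromosome 5 and 0.987 on chromosome 9, against 0.547 elsewhere. With each run counted once, the density was 1.64 per Mb on chromosome 5 and 1.61 on chromosome 9, against 1.08 elsewhere.

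The tightest pair of chromosome 9 ran from 48924679 to 48925668, with 234 bp between its regions. Its folds were 6.94 and 7.34 in replicate 1 and 5.06 and 4.13 in replicate 2. The tightest pair of chromosome 5 ran from 61831634 to 61833957, within the densest bin, with a gap of 1685 bp. Its folds were 3.49 and 5.29 in replicate 1 and 4.22 and 4.69 in replicate 2. Each library thus resolved both members of each pair.

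Input at the member regions was low. The median local background of the shared regions was 1.39 times the genome-wide value in replicate 1 and 1.198 in replicate 2 on chromosome 5, 1.25 and 1.24 on chromosome 9, and 1.46 and 1.27 elsewhere. Over all listed peaks the medians were 1.03 and 1.04 on chromosome 5 and 1.07 and 1.07 on chromosome 9, against 1.11 and 1.09 elsewhere. The part of the background in the densities was not tested. Input reached 5 genome-wide units or more at 1 region of chromosome 5, at chr5:78307343-78307794, and at 0 of chromosome 9, so leaving such regions out kept the ratios at 1.51 on both chromosomes. Shared regions were a median of 384 bp wide on chromosome 5, 404 bp on chromosome 9 and 384 bp elsewhere, and their summits lay a median of 41, 41.5 and 40 bp apart.

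At equal rank, the strongest members found partners at rates near those elsewhere. Among ranks 1 to 1000, 60 of 65 replicate 1 peaks of chromosome 5 and 37 of 39 of chromosome 9 had a partner of any strength, or 92.3% and 94.9%, against 94.9% on the other autosomes. In replicate 2 the counts were 58 of 60 and 37 of 37, against 97.8%. At ranks 1001 to 2000 the replicate 1 shares were 76.0% (61.8 to 86.9) and 74.5% (59.7 to 86.1), against 66.7%. At ranks 2001 to 5000 the replicate 1 shares were 33.3% (24.7 to 42.9) and 27.2% (17.9 to 38.2), against 25.6%. The intervals of the members included the value elsewhere in all of these. At ranks 5001 to 10000 of replicate 1 chromosome 5 had 12.6% (7.96 to 18.6), above the 7.59% elsewhere, and chromosome 9 had 8.99% (3.96 to 16.9).

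In replicate 2 the shares of chromosome 9 lay above those elsewhere between ranks 1001 and 20000. At ranks 1001 to 2000 it had 81.8% (64.5 to 93.0) against 61.4%. At ranks 2001 to 5000 the shares were 32.6% on chromosome 5 (22.8 to 43.5) and 45.7% on chromosome 9 (28.8 to 63.4, 16 of 35 peaks), against 19.7% elsewhere. At ranks 5001 to 10000 chromosome 9 had 19.6% (12.4 to 28.6) against 9.73%, and at ranks 10001 to 20000 13.1% (8.08 to 19.7) against 6.63%. Among all replicate 2 peaks with q above 0.05 the share was 3.71% on chromosome 9 (2.31 to 5.62), next to 3.76% elsewhere. At ranks 5001 to 10000 and 10001 to 20000 chromosome 5 had 12.8% (8.60 to 18.1) and 7.30% (4.83 to 10.5), with intervals that included the value elsewhere. At ranks 2001 to 5000 its interval lay above the value elsewhere.

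**Figure D5:**
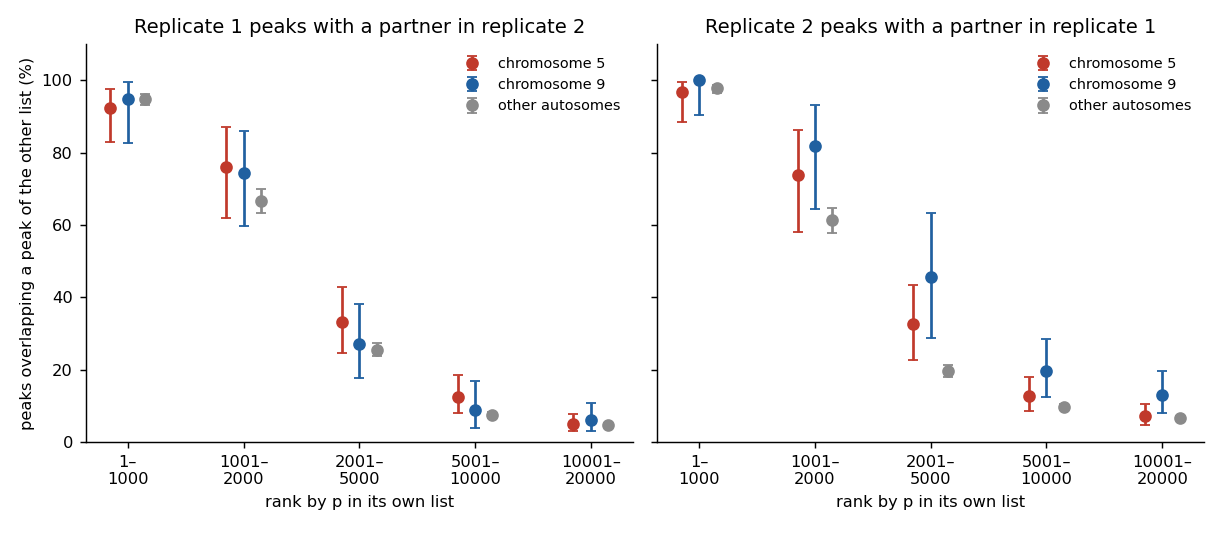
Share of peaks that overlapped a peak of any strength in the other list (y, %), by rank within the own list (x), for replicate 1 (left) and replicate 2 (right). Bars are exact binomial 95% intervals. Shares fall from over 90% in the first class to below 15% in the last, and the blue points of chromosome 9 lie above the grey ones in the right panel, 45.7% against 19.7% at ranks 2001 to 5000.

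Peaks of at least 5-fold without a partner came from replicate 1. Of its peaks with q ≤ 0.05 and such a fold, 94 of 112 on chromosome 5 (83.9%) and 73 of 97 on chromosome 9 (75.3%) had a partner of any strength in replicate 2, near the 1250 of 1609 elsewhere (77.7%). That left 18 and 24 without one. The strongest of those were at chr5:54646206-54647016, at 7.36-fold with a pileup of 25 fragments, and at chr9:58219332-58219741, at 6.84-fold with 22 fragments. In replicate 2 all such peaks had a partner, 35 of 35 on chromosome 5 and 33 of 33 on chromosome 9, and 479 of 481 elsewhere. The strongest replicate 2 peaks without a partner were 4.83-fold and 4.31-fold. A fold of 5 is not the same count of fragments in the 2 lists. At the genome-wide background, 15 fragments gave 5.29-fold in replicate 1, and 26 fragments gave 5.06-fold in replicate 2. The part of this in the contrast between the replicates was not tested.

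Overlaps that did not pass q ≤ 0.05 in both lists added 79 regions on chromosome 5 and 37 on chromosome 9. Their density was 0.891 per Mb (0.705 to 1.11) and 0.608 per Mb (0.428 to 0.839), against 0.888 elsewhere. The ratio was 1.003 on chromosome 5 (0.790 to 1.26) and 0.685 on chromosome 9 (0.481 to 0.948), so neither had a surplus of weakly supported overlaps. With these included, chromosome 9 had 141 shared regions, 1.14 times the density elsewhere (0.956 to 1.35), and 7 of the 34 other autosomes were denser.

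The values at the edges of the rule were as follows. On chromosome 5 the first peaks inside began at 265398 (replicate 1, 3.27-fold) and 251370 (replicate 2, 2.80-fold), and the last ones outside at 165667 (2.78-fold) and 247659 (2.66-fold). On chromosome 9 the first inside began at 396331 (3.31-fold) and 776958 (3.19-fold), and the last outside at 130042 (3.08-fold) and 130183 (3.38-fold). The −log10 q values next to the q threshold of 0.05 were 1.3043 inside and 1.2978 outside in replicate 1, and 1.3092 and 1.3006 in replicate 2, the same on both chromosomes.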

How the data were processed

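Bowtie2, Picard, MACS2 and the build CanFam3.1 are named by the authors, per the submitters' processing notes. Their versions, filters and input pairing are not given in the sources used. The deposited lists hold, for each peak of a single library, the fold enrichment at the summit, its −log10 p and −log10 q, a score (the whole part of 10 times −log10 p, not used further) and the summit offset in bases, another unit. Pileup and background were solved from the deposited fold and p, with (pileup + 1) / (background + 1) as the fold.

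Members and measures were chosen with earlier results of these data known. No test was run, because the chromosomes were chosen on the same lists. Shared regions are merged peaks with q ≤ 0.05 overlapping by at least 1 bp; each takes its values from the peak of lowest p in each list. Named are the 8 regions per chromosome with the highest lower fold, the fullest and emptiest bins, and the largest run of neighbours, of which the tightest pair was taken since all were pairs. Spans end at the last peak. For a density ratio, the 95% interval comes from the exact binomial split of the counts. The computations, in Python 3.11.15 with pandas 2.3.3, scipy 1.17.1 and numpy 2.4.6, were tested on simulated data. Alternatives changed the q threshold, overlap, fold, background, distance, comparison set and library used. Both lists come from independent experiments, 1 library each.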

Additional observations from a re-analysis of the deposited data

How the results depend on the processing

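The density ratio of shared regions kept its direction on both chromosomes under each alternative that used both lists. On chromosome 9 it moved outside the main interval with peaks of any strength (1.14) and with a fold of at least 5 (2.37). Single lists did not show it: without replicate 1 and without replicate 2 the ratios were 1.01 and 0.992 on chromosome 5 and 0.687 and 0.771 on chromosome 9. Further settings were added after the data were seen. Without the densest 5 Mb bin the ratios were 1.39 and 1.36, and with runs within 10 kb counted once 1.51 and 1.49, on chromosomes 5 and 9.

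For peaks with q ≤ 0.05 of each list, the ratio turned above 1 for the 2000 peaks of lowest p on chromosome 9, at 1.68 in replicate 1 and 1.36 in replicate 2. It was 1.54 and 1.36 for the same ranks on chromosome 5. On both chromosomes most peaks of these ranks had a partner in the other list, so these ratios largely restate the choice of the chromosomes. On chromosome 5 the main values lay so near 1 that small shifts crossed it. These were 1.03 at a q threshold of 0.01 in replicate 1, and 0.966 with all listed peaks and 0.985 with chromosomes 14 and 17 in the comparison in replicate 2. On chromosome 9 a q threshold of 0.01 gave 0.967 and 0.851, and all listed peaks 0.674 and 0.598.

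The median lower fold moved to 4.13 and 4.25 at a q threshold of 0.01, and to 3.15 and 3.25 with peaks of any strength, on chromosomes 5 and 9. Leaving out a replicate gave 3.09 to 3.64 and 3.16 to 3.703. The share with a neighbour within 10 kb fell to 5.41% on chromosome 5 at a q threshold of 0.01. It was 5.77% on chromosome 9 at 5 kb, and 33.3% and 36.5% at 50 kb. Single lists, which are denser, gave 20.7% to 23.8% and 19.8% to 22.4%.

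No paired analysis was possible because no result comes from a test and the inputs have no peak lists. The lowest listed pileups were 6 and 10 fragments, and the part of depth in what was listed was not tested. Chromosome lengths and gaps of this build were not used here. Where a value moved, the cause was not tested.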
